A study of Homo sapiens with 4 samples.

Results

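The histone genes of PC3 cells were followed after knockdown of ALKBH3 and between 2 times of selection. They are 79 of the 19102 genes that RefSeq named through the accessions of the array, and 95 probes read them. Members were chosen by name, through older symbols of the clustered histone genes (HIST1H to HIST4H) and of the variants (H2AF, H3F3 and H1F series). No measured value entered the name match, but members were chosen with earlier results of these data known. The clustered, replication-dependent genes make up 66 of them (77 probes), of which 54 lie on chromosome 6, 11 on chromosome 1 and 1 on chromosome 12. The variants are 12 genes (17 probes). The last member is H1-10-AS1, an antisense RNA beside the linker histone variant gene H1-10, whose older name fits the same pattern.

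PC3 is a human prostate cancer cell line. Lentivirus brought in an shRNA against ALKBH3, an AlkB family enzyme that removes alkyl groups from nucleic acids, or a control shRNA against GFP, and puromycin selection then lasted 48 h or 96 h. The 4 samples, of which each joins an shRNA with a time, were read on 1 single-colour Agilent array each, so that every shRNA and every time has 2 arrays (n = 2), and the labels name neither a clone nor which ALKBH3 shRNA was used. Each slide held the arrays of a single time, so time and slide cannot be told apart, whereas the shRNAs were compared within a slide.

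Replication-dependent histone genes supply the H1, H2A, H2B, H3 and H4 proteins that package newly made DNA, and they are transcribed mainly in S phase. Their mRNAs end in a stem-loop that is bound by SLBP in place of a poly(A) tail, and the coactivator NPAT drives their transcription. Most variant genes stand alone, and they mostly have poly(A) tails and supply histones outside S phase as well. The labelling kit primes cDNA from poly(A) tails, so that for the clustered genes the arrays read those transcripts that carry one. Copies of a clustered gene are nearly identical, and their signals may include RNA of other copies.

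Promoters of the replication-dependent genes hold known elements, and the sequences below show how they differ between the histone types that the comparisons separate. RefSeq (GRCh38.p14) gave a promoter for 72 of the 79 member genes, and the 150 bases before the start were searched on both strands for the TATA box (TATAAA), the CCAAT box (CCAAT) and the octamer (ATTTGCAT), an element known from H2B promoters. Matches could overlap. Capitals mark a match in either direction. H2AC13 and H2BC7 are shown because they were the members called between the time points, H3C2 and H4C2 stand for the H3 and H4 types with the higher signal at 96 h, H2BC9 stands for the H2B genes without it, and H2AX and H2AZ1 are variants.
H2AC13 promoter, chr6:27808023-27808172, plus strand: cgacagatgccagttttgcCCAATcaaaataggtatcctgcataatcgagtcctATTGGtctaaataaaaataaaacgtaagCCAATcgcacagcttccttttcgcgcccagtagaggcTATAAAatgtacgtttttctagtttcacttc
H2BC7 promoter, chr6:26199366-26199515, plus strand: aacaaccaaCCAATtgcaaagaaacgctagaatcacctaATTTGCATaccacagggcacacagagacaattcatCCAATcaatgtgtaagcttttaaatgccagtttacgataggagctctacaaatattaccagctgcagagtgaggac
H2BC9 promoter, chr6:26251464-26251613, plus strand: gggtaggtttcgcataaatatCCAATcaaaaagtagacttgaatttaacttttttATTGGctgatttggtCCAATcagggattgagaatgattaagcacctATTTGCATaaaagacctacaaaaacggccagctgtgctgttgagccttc
H3C2 promoter, chr6:26032100-26032249, minus strand: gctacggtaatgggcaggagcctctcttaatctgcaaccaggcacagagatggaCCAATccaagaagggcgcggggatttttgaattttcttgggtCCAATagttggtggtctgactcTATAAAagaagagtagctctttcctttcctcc
H4C2 promoter, chr6:26027284-26027433, minus strand: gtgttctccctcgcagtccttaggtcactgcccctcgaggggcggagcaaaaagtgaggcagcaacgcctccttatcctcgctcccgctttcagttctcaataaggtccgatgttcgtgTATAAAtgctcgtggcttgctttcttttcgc
H2AX promoter, chr11:119095466-119095615, minus strand: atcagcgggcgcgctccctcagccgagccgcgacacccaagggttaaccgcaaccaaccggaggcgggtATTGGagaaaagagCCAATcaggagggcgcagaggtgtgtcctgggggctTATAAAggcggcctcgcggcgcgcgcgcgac
H2AZ1 promoter, chr4:99950276-99950425, minus strand: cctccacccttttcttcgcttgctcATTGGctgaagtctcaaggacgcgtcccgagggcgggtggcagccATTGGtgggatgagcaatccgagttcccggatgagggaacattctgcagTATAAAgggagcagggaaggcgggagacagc

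Among 61 replication-dependent promoters, 33 (54.1%) held the TATA box, 52 (85.2%) the CCAAT box and 20 (32.8%) the octamer. Over all 35116 promoters of the table these shares were 6.71%, 23.5% and 0.988%. The CCAAT box was in each of the 6 H1, 14 H2A, 18 H2B and 11 H3 promoters and in 3 of the 12 H4 promoters. The octamer was in 14 of the 18 H2B promoters, 5 of the H2A promoters, 1 of the H3 promoters and 0 of the H1 and H4 promoters. That H3 promoter, of H3C4, is the same 150 bases as the H2AC7 promoter and is counted under both types. Of 11 variant promoters, 4 held the TATA box, 6 the CCAAT box and 1 the octamer. The windows of the replication-dependent genes had a median of 44% G and C against 60% over all promoters. A match describes the letters in the window and not the binding of a factor.

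**Figure D1:**
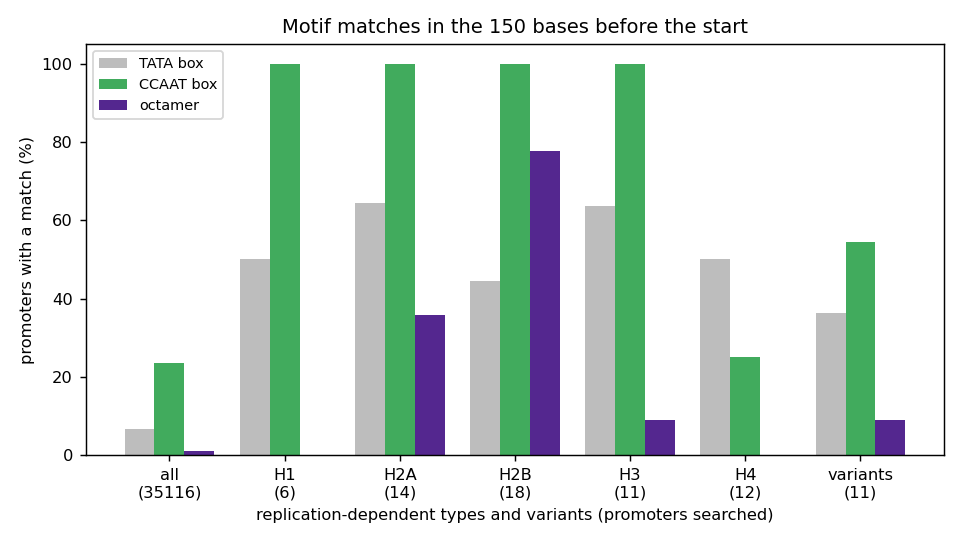
Share of promoters (%) with a match to the TATA box, the CCAAT box or the octamer in the 150 bases before the start, for all 35116 promoters, the replication-dependent histone types and the variants, with the number of promoters under each group. The octamer bar is highest for H2B (77.8%), and the H4 bar for the CCAAT box (25%) is close to that of all promoters (23.5%).

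The signal below is log2 intensity relative to the 75th percentile of its array, a scale on which a probe is compared with itself and not with other probes. Testing was limited to the 23244 probes that the image software marked as well above background on both arrays with the same shRNA. By these criteria 72 replication-dependent probes (62 genes), 15 variant probes (11 genes) and the antisense probe were tested, and each of them was well above background on all 4 arrays. The linker histone genes H1-1, H1-5, H1-6 (a testis form) and H1-8 (an oocyte form), the testis gene H2BC1, and 1 further probe each of H2BC18 and H2AJ were not tested. The call of a probe needed a 2-fold difference (log2 of 1) and, in limma, an unadjusted p below 0.05. The Benjamini-Hochberg adjusted p over all tested probes is also given, without and with the other factor (time for the shRNA comparison, shRNA for the time comparison) as a block.

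The target stood clearly apart. On 1 ALKBH3 probe the signal was -0.63 and -0.61 with control shRNA and -2.67 and -2.68 with ALKBH3 shRNA at 48 h and 96 h. The other probe was 1.63 lower on the log2 scale (log2 difference -1.63, SE 0.13). All 5 PC3 markers (KRT8, KRT18, EPCAM, CDH1 and VIM) were well above background on every array, and KLK3, a prostate secretory protease that PC3 cells are known to lack, was on none. EPCAM, an epithelial adhesion protein, was 0.98 higher with ALKBH3 shRNA (limma adjusted p = 0.030 with time as a block). CDH1, the epithelial cadherin, was lower at 96 h (log2 difference -1.33), and all 4 blood markers, 2 of 3 endothelial and 2 of 3 fibroblast markers were marked as well above background on all arrays. The part of these in the histone values was not tested.

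After ALKBH3 knockdown no tested histone probe reached the fold cutoff, and the largest log2 difference over both times was 0.36 in size. Of the 72 replication-dependent probes, 0 were called higher and 0 lower, against 0.886% and 0.232% of all tested probes, and none of the 15 variant probes was called. With time as a block, 0 histone probes passed the adjusted p in limma, against 1.97% of all probes higher and 0.977% lower. Without the block, 0 of all 23244 probes passed it, and 1 histone probe, of H2AC8, had an unadjusted p below 0.05 and was higher, where 4.32% of all probes were higher and 3.33% lower at such a p. In such bulk RNA, fewer cells of a kind and less RNA per cell cannot be told apart.

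The small differences of the replication-dependent probes leaned to one side, and those of the variants did not lean with them. The median log2 difference, ALKBH3 minus control, was 0.12 over the 72 replication-dependent probes at 48 h and 0.12 at 96 h, against -0.01 and 0.01 over all tested probes. Of these probes, 46 were higher at both times and 5 lower at both, against 8015 and 7948 of all 23244 tested probes. The 2 arrays with ALKBH3 shRNA lay above both control arrays for 21 replication-dependent probes (29.2%), where 17.4% of all probes did so, and below both for 0, where 18.6% did so. Over the 15 variant probes the median was -0.08 at 48 h and -0.04 at 96 h, with 3 probes higher and 8 lower at both times. The median of the replication-dependent probes over all arrays, 0.12, was 0.04 without the ALKBH3 array at 96 h, 0.05 without the control array at 48 h, 0.19 without the ALKBH3 array at 48 h and 0.20 without the control array at 96 h. That of the variants, -0.06, was 0.01 without the ALKBH3 array at 48 h. Here and below, leaving out an array mixes shRNA with time, so such a value also holds part of the other difference.

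**Figure D2:**
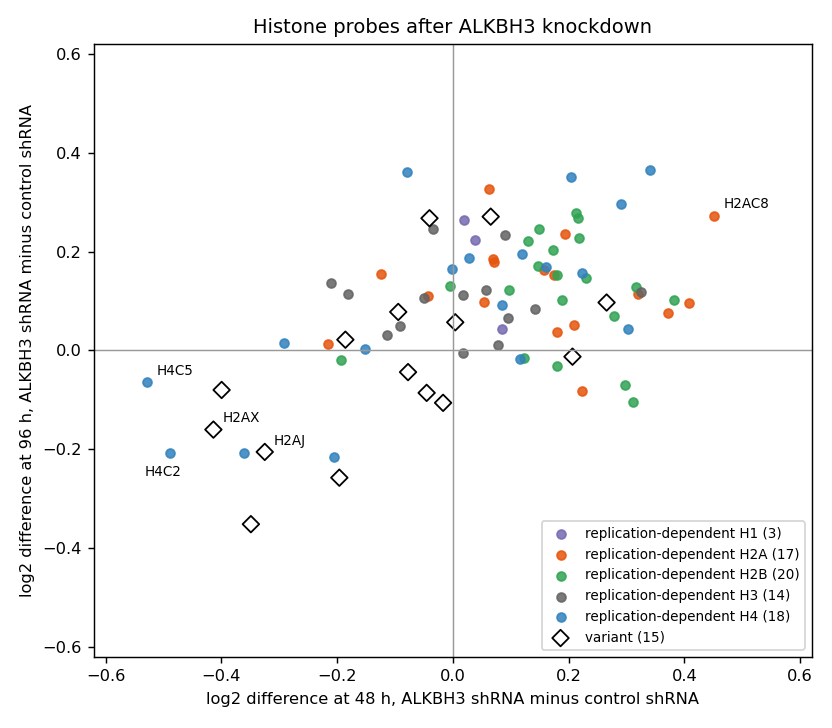
Log2 difference between ALKBH3 and control shRNA at 48 h (x axis) and 96 h (y axis) for each tested histone probe, with 1 array per shRNA and time. The replication-dependent probes lie mostly in the upper right (46 of 72), the 26 others are 9 H4, 7 H3, 6 H2B and 4 H2A probes, and 8 of the 15 variant probes (diamonds) lie in the lower left.

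By histone type, the H2B probes had the highest median after knockdown. Their median log2 difference was 0.17, 19 of 20 were above 0, and for 10 of 20 both ALKBH3 arrays lay above both control arrays. Of all 23244 tested probes, 11762 were above 0, and for 17.4% both ALKBH3 arrays lay above both control arrays. The H2A probes had a median of 0.13 (16 of 17 above 0), the 3 H1 probes 0.13, the H4 probes 0.10 (12 of 18) and the H3 probes 0.05 (10 of 14). These medians stayed above 0 under each background correction and scaling tried.

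H2AC8, which encodes a canonical H2A, had the largest rise in signal of the replication-dependent probes. Its signal was 1.79 and 1.76 with control shRNA at 48 h and 96 h and 2.24 and 2.03 with ALKBH3 shRNA. Both ALKBH3 arrays were above both control arrays. The log2 difference was 0.36 (SE 0.13, n = 2 against 2, limma adjusted p = 0.644, or 0.120 with time as a block).

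The next probes upward were H4C7 (0.35), H4C11 (0.29), H4C12 (0.28) and H2AC19 (0.25), and without the ALKBH3 array at 48 h the last of them was -0.12. The H4C11 probe and this H4C12 probe, of canonical H4 genes on chromosome 6, did not overlap between the shRNAs. The second H4C12 probe was at 0.16, and its shRNA groups overlapped. H4C7 reads an H4 gene whose protein departs from the canonical sequence, and its shRNA groups overlapped. The value of H4C7 was 0.05 with normexp, 0.22 with quantile normalization and 0.12 with the authors' values, and it ranged from 0.11, without the ALKBH3 array at 96 h, to 0.59, without the ALKBH3 array at 48 h. None of the 4 passed the adjusted p in limma, whose values lay between 0.106 and 0.269 with time as a block.

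The 5 lowest probes all read H4 genes. H4C2 gave 3.15 and 3.91 with control shRNA and 2.66 and 3.70 with ALKBH3 shRNA at 48 h and 96 h. The ALKBH3 array was lower at each time, but the shRNA groups overlapped because both arrays of 96 h were above both of 48 h. The log2 difference of H4C2 was -0.35 (SE 0.44, limma adjusted p = 0.940, or 0.157 with time as a block). The others were H4C5 (-0.30), H4C13 (-0.28), H4C4 (-0.21) and H4C3 (-0.14), each with the lower signal on the ALKBH3 array at 48 h. At 96 h the difference of H4C3 was 0.02. All 5 turned above 0 when the ALKBH3 array at 48 h was left out (0.13 to 0.38), and 4 of them, all but H4C5, when the control array at 96 h was left out. In both cases the ALKBH3 arrays that remained were later on average than the control arrays. All 5 probes had higher signal at 96 h, so these sign changes carry part of the time difference.

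Second probes of the same genes differed from these. The other H4C13 probe was at 0.05 and the other H4C4 probe at 0.09 after knockdown. Over 13 member genes with 2 or more tested probes, the probes of a gene differed by at most 0.33 in this comparison.

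Among the variants, H2AJ and H2AZ2 were lower with ALKBH3 shRNA at both times. H2AJ, a mammalian H2A variant, gave 2.94 and 2.80 with control shRNA and 2.62 and 2.59 with ALKBH3 shRNA. Its ALKBH3 arrays both lay below the control arrays, as 1 of the 15 variant probes (6.67%), where 18.6% of all probes did so. Its log2 difference was -0.27 (SE 0.12, limma adjusted p = 0.718, or 0.178 with time as a block). H2AZ2, which encodes H2A.Z.2 of active promoters, was at -0.24 and -0.35 on its 2 probes. H2AX, the variant phosphorylated at DNA breaks, was at -0.29 (SE 0.31, limma adjusted p = 0.921, or 0.199 with time as a block), from -0.41 at 48 h and -0.16 at 96 h.

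The other variants were nearer to 0. H2AZ1, which encodes H2A.Z.1, was at 0.17, and MACROH2A1 and MACROH2A2, which encode histones with a macro domain found on silent chromatin, were at -0.06 and 0.10. H3-3A and H3-3B encode the replacement histone H3.3, and their 5 probes lay between -0.08 and 0.18. Of these, 1 H3-3B probe (0.18) was higher on both ALKBH3 arrays, as were 17.4% of all probes. The linker histone variants H1-7 and H1-10 were at -0.06 and 0.03. Within these variants, H2AX and 1 H2AZ2 probe turned above 0 without the ALKBH3 array at 48 h (0.07 and 0.01), and H2AZ1 fell below 0 without the control array at 48 h (-0.02) or the ALKBH3 array at 96 h (-0.12). The antisense RNA H1-10-AS1 was at -0.09. No variant passed the adjusted p in limma with or without the block.

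Between the time points more histone probes passed a test than after knockdown, most of them of H4 and H3 genes. Of the 72 replication-dependent probes, 2 were called higher at 96 h (2.78%), of H2AC13 and H2BC7, against 0.146% of all tested probes, and 0 were called lower, against 0.525%. With shRNA as a block, 17 replication-dependent probes of 16 genes were higher by the adjusted p in limma (23.6%), where 5.02% of all probes were, and 1 was lower, H2AC19, where 4.96% were. Without the block 0 of the 23244 probes passed the adjusted p in either direction, 27 replication-dependent probes had an unadjusted p below 0.05 with higher signal at 96 h and 3 with lower, against 9.87% and 7.89% of all probes. Both arrays of 96 h lay above both of 48 h for 36 replication-dependent probes (50%), where 28.2% of all probes did so, and below for 12 (16.7%), where 23.8% did so.

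The values differed by histone type. The median log2 difference, 96 h minus 48 h, was 0.39 over 18 H4 probes, 0.32 over 14 H3 probes, 0.07 over 17 H2A probes and -0.08 over 20 H2B probes, against 0.01 over all tested probes. With the block, 8 H4, 4 H3, 3 H2A, 1 H2B and 1 H1 probe passed as higher. For 17 of the 18 H4 probes and 12 of the 14 H3 probes the difference was above 0, and for 6 of the 20 H2B probes. Over all 23244 tested probes it was above 0 for 12100. In the cells with control shRNA the medians were 0.38 for H4, 0.34 for H3, 0.11 for H2A, -0.06 for H2B and -0.06 for the 3 H1 probes, and with ALKBH3 shRNA they were 0.37, 0.29, 0.01, -0.07 and 0.12. Over the 5 other background corrections and scalings the median lay between 0.30 and 0.45 for H4, between 0.32 and 0.37 for H3 and between -0.14 and -0.03 for H2B, and for the 3 H1 probes it changed sign.

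**Figure D3:**
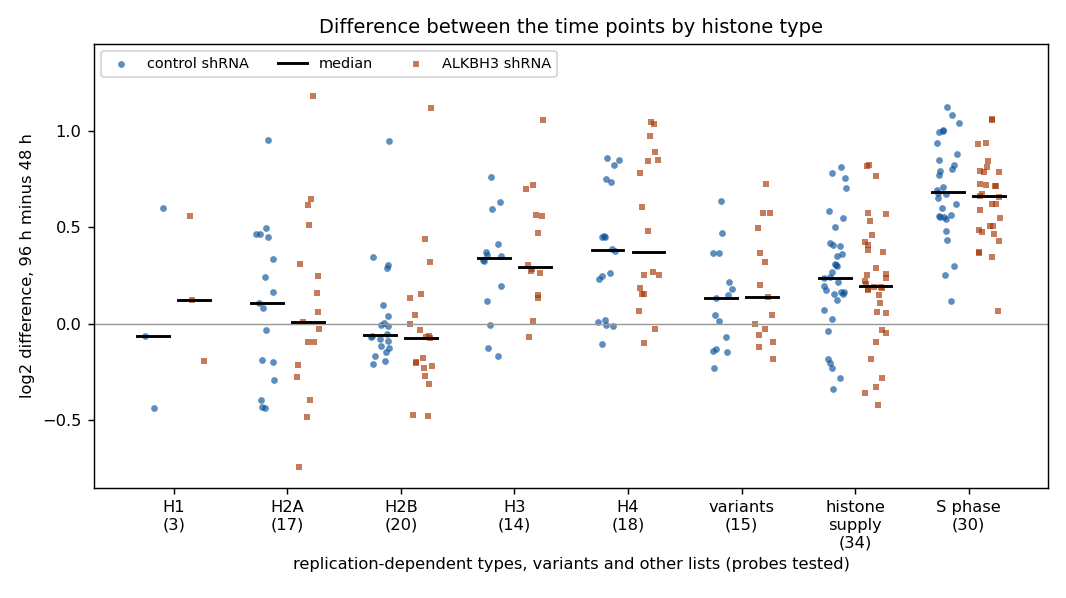
Log2 difference between 96 h and 48 h for each tested probe in cells with control shRNA (circles) and with ALKBH3 shRNA (squares), with the median of each group as a bar, for replication-dependent H1 to H4, the variants, the histone supply genes and the S phase genes. The H4 and H3 medians lie at 0.29 to 0.38, the H2B medians just below 0, and all 30 S phase probes are above 0 under both shRNAs.

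H2AC13 and H2BC7, canonical H2A and H2B genes of the chromosome 6 cluster, were the called members. H2AC13 gave -0.93 and -1.15 at 48 h with control and ALKBH3 shRNA and 0.02 and 0.03 at 96 h. H2BC7 gave -2.91 and -3.10 at 48 h and -1.96 and -1.98 at 96 h. For both genes the time points did not overlap, and the lowest array was that of ALKBH3 shRNA at 48 h.

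The log2 difference of H2AC13 was 1.07 (SE 0.12, n = 2 against 2, limma adjusted p = 0.147, or 0.029 with shRNA as a block). That of H2BC7 was 1.03 (SE 0.11, limma adjusted p = 0.147, or 0.029 with the block). Without the ALKBH3 array at 48 h they were 0.96 and 0.94, so that 0 replication-dependent probes were called, and without the control array at 48 h 6 were. Under normexp background correction H2BC7 was at 0.93 and 1 probe was called. The remaining 19 H2B probes lay between -0.33 and 0.37, and H2BC7 was the 1 H2B probe that passed with the block.

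Several H4 and H3 probes came close to the fold cutoff. H3C2, a canonical H3 gene, gave 1.29 and 1.11 at 48 h with control and ALKBH3 shRNA and 2.06 and 2.17 at 96 h, a log2 difference of 0.91 (SE 0.12). H4C13 gave 3.56 and 3.20 at 48 h and 4.38 and 4.17 at 96 h, a difference of 0.90 (SE 0.17). H4C2 was 0.89 higher at 96 h (SE 0.20). In all 3 genes both arrays of 96 h lay above both of 48 h, and each passed the adjusted p of limma with the block (0.029) and not without it (0.147 to 0.172). Without the control array at 48 h H3C2 just passed the fold cutoff, H4C13 was at 1.08 and H4C2 at 1.14, and all 3 were called.

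The other probes that passed with the block, named after their values were seen, read H4C3 (0.89), H4C4 (0.85), H4C1 (0.82 and 0.53 on 2 probes), H4C16 (0.67), H4C7 (0.47), H3C10 (0.66), H3C7 (0.58), H3C4 (0.48), H2AC20 (0.57), H2AC14 (0.49) and H1-3 (0.58), a linker histone gene. H4C5 was at 0.61 and missed the adjusted p in limma (0.060 with the block). Second probes gave smaller values for H4C13 (0.32), H4C4 (0.27) and H3C10 (0.25), and none of the 3 passed. The probes of a gene differed by at most 0.59 in this comparison, over 13 genes.

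H2AC19 was the replication-dependent probe with the largest fall. Its signal was 1.22 and 1.62 at 48 h with control and ALKBH3 shRNA and 0.78 and 0.88 at 96 h. Both arrays of 96 h were below both of 48 h. The log2 difference was -0.59 (SE 0.17, limma adjusted p = 0.220, or 0.045 with the block), or -0.39 without the ALKBH3 array at 48 h, and the gene has a near-identical neighbour copy, H2AC18, so that the probe may read both.

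The next probes downward were H2AC25 (-0.42), H2AC7 (-0.34), H2AC6 (-0.34) and H2BC21 (-0.33), genes of canonical or nearly canonical H2A and H2B. In each of them both arrays of 96 h lay below both of 48 h, and none passed the adjusted p in limma (0.051 to 0.113 with the block). H2AC25 was at -0.17 with normexp and -0.16 with the authors' values. Without the ALKBH3 array at 48 h, H2AC7 was at -0.15 and H2BC21 at -0.14, and without the control array at 48 h they were at -0.52 and -0.53. The second H2AC6 probe was at -0.15, and the second H2BC21 probe was at 0.22, in the opposite direction. Of these 5 lowest probes, 4 read H2A genes and 1 an H2B gene, and 0 an H3 or H4 gene.

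**Figure D4:**
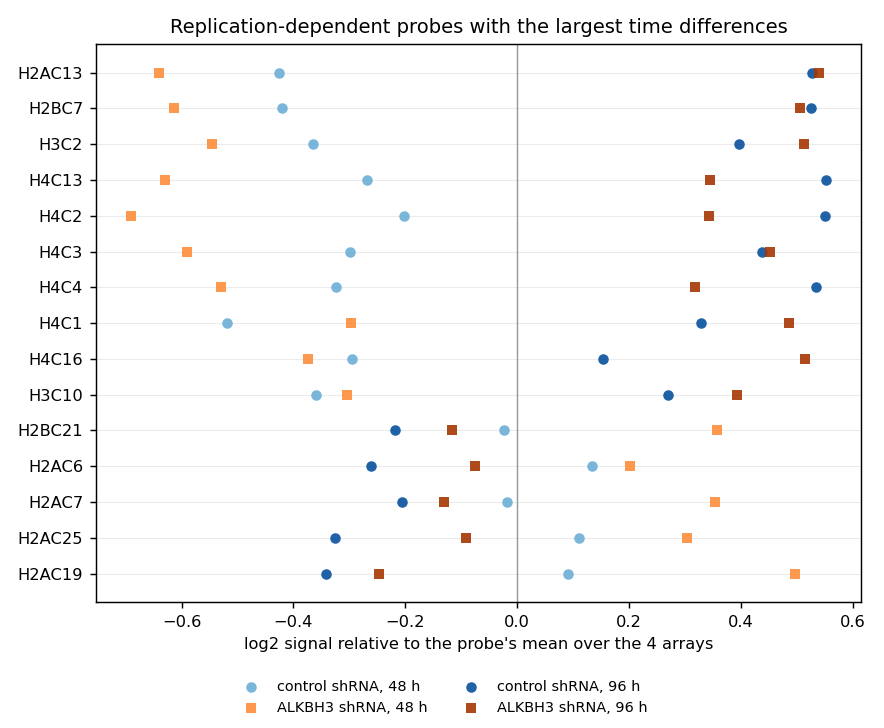
Signal on each of the 4 arrays relative to the mean of the probe (log2) for the 10 replication-dependent probes with the largest rise and the 5 with the largest fall between 48 h and 96 h. For the 10 upper probes both arrays of 96 h (dark) lie to the right of both arrays of 48 h (light), and for the 5 lower probes to the left.

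The promoters printed above can be set beside these values. Of the 14 replication-dependent genes with a promoter that passed as higher with the block, 11 held the TATA box, 10 the CCAAT box and 2 the octamer. Of the 43 other tested genes with a promoter, 20 held the TATA box, 38 the CCAAT box and 17 the octamer. The promoter shared by H3C4, which passed, and H2AC7, which did not, is counted on both sides. H4 genes, of which 3 of 12 held the CCAAT box and 0 the octamer, make up much of the first group, so that these counts and the histone type are not separate. H2BC7, the H2B gene that rose, holds the CCAAT box and the octamer, as does H2BC9, which was at -0.08.

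Among the variants 2 of 15 probes passed as higher at 96 h with the block (13.3%, against 5.02% of all probes), H2AX among them, and 0 by the cutoffs (0.146%). H2AX gave 3.02 and 2.61 at 48 h with control and ALKBH3 shRNA and 3.49 and 3.33 at 96 h. The time points did not overlap, and the ALKBH3 array was the lower one at each time. The log2 difference of H2AX was 0.60 (SE 0.18, limma adjusted p = 0.225, or 0.040 with the block), and it was 0.39 without the ALKBH3 array at 48 h.

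For H2AZ1 both arrays of 96 h were above both of 48 h, and the difference of 0.47 (SE 0.13) missed the adjusted p in limma (0.052 with the block). Both H2AZ2 probes were higher at 96 h (0.34 and 0.37) and missed it too. Without the ALKBH3 array at 48 h they were at 0.14 and 0.19, and with normexp at 0.53 and 0.18.

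Other variants lay closer to 0. H1-10 was at 0.18, H1-7 at -0.11, MACROH2A1 at 0.09, MACROH2A2 at 0.11 and H2AJ at -0.09. The 5 probes of the H3.3 genes lay between -0.16 and 0.17. Both arrays of 96 h lay above those of 48 h for 8 variant probes and below for 3, against 28.2% and 23.8% of all probes. The median over the 15 probes was 0.11, and the antisense RNA H1-10-AS1 was at 0.35, with both arrays of 96 h above those of 48 h (limma adjusted p = 0.226, or 0.073 with the block).

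**Figure D5:**
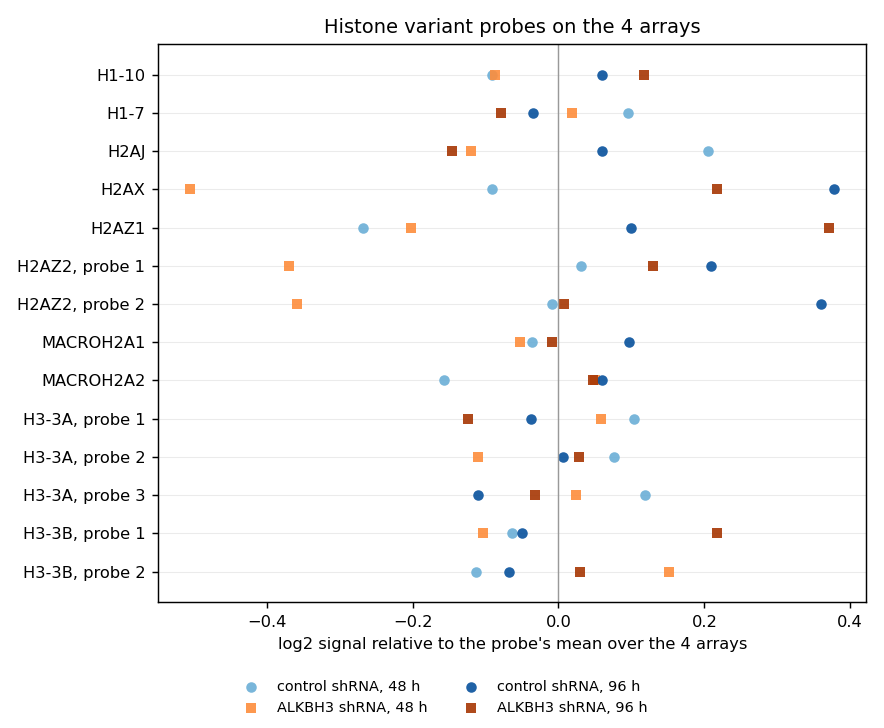
Signal on each of the 4 arrays relative to the mean of the probe (log2) for 14 of the 15 tested variant probes. H2AX, H2AZ1 and both H2AZ2 probes have both arrays of 96 h (dark) to the right of both arrays of 48 h (light), and H2AJ has both ALKBH3 arrays (squares) to the left of the control arrays.

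Genes that work beside the histones were followed as a list of chaperones, assembly factors and factors of histone mRNA. On 34 tested probes of 24 genes, 0 were called after knockdown, and with time as a block 1 passed the adjusted p of limma as lower (0.977% of all probes did), ASF1B, a chaperone that hands new H3 and H4 to the assembly machinery. ASF1B gave 0.98 and 1.73 with control shRNA at 48 h and 96 h and 0.36 and 1.13 with ALKBH3 shRNA. The ALKBH3 array was lower by about the same amount at each time, and the shRNA groups overlapped because of the rise between the times. The log2 difference was -0.62 (SE 0.37, limma adjusted p = 0.793, or 0.045 with the block).

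The median of the supply list was -0.02 after knockdown and 0.20 between the times. At 96 h, 8 of its probes, of 7 genes, passed as higher with the block (23.5%) and 0 as lower, against 5.02% and 4.96% of all probes. They read ASF1B (0.76), CHAF1A (0.64 and 0.58) and CHAF1B (0.48) of the replication-coupled assembly factor, MCM2 (0.80) of the replicative helicase, HJURP (0.82), the chaperone of the centromeric H3, ANP32E (0.52 on 1 of its 3 probes), the chaperone of H2A.Z, and ZNF473 (0.44), a factor of histone mRNA 3' end processing. SLBP was 0.34 higher at 96 h (SE 0.09) with time points that did not overlap, and missed the adjusted p in limma (0.075 with the block). NPAT was at 0.03. After knockdown SLBP was at 0.03 and NPAT at 0.003.

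A list of S phase genes, which shares SLBP with the supply list, had higher signal at 96 h throughout. It holds mainly genes of replication factors, nucleotide enzymes and their regulators, and also MKI67 and UNG. All 30 tested probes of 23 genes were above 0 under both shRNAs, with a median of 0.67. By the cutoffs 2 were called (6.67%, against 0.146% of all probes), E2F2 (1.09), a transcription factor of the S phase programme, and GINS2 (1.07), a subunit of the replicative helicase. With the block 25 probes of 19 genes passed as higher (83.3%, against 5.02% of all probes). E2F2 gave -0.65 and -0.31 at 48 h with control and ALKBH3 shRNA and 0.47 and 0.74 at 96 h, and GINS2 gave -0.07 and 0.14 at 48 h and 1.01 and 1.20 at 96 h. The time points did not overlap in either.

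After knockdown the S phase list had a median of 0.10, with 23 of its 30 probes above 0 and the 3 MKI67 probes below (-0.28 to -0.33). Of all 23244 tested probes, 11762 were above 0. By the cutoffs or with the block, 0 of its 30 probes passed. That median lay between -0.25, without the control array at 48 h, and 0.41, without the control array at 96 h. Leaving out an array mixes shRNA with time, so this range holds part of the time difference of the list (median 0.67). Within a time the knockdown median was 0.11 at 48 h and 0.07 at 96 h. The part of the S phase genes in the histone values was not tested. Whether the time difference of any gene depended on the shRNA could not be tested, since each combination has 1 array.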

How the data were processed

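RNA of PC3 cells with control or ALKBH3 shRNA at 48 h and 96 h was labelled with a linear amplification kit and hybridised to 4 single-colour Agilent arrays. The authors deposited, per the file headers, spot intensities that Agilent Feature Extraction 10.7.3.1 had subtracted for background and detrended on each array, each array by itself. A log2 table that the authors deposited beside them had been normalized with limma. Its medians were 7.52 to 7.54, it is on the log2 scale with an unstated method of scaling, and it served as an alternative.

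Spots marked as outliers (180 to 379 per array) were removed, 0 were saturated, and the intensity at the 75th percentile was 2150 to 2394. Between 67.0% and 70.9% of probes were well above background. Log2 intensities were centred on the 75th percentile, and repeat spots were replaced by their mean. The background flag of a probe needed a share of 0.5 of its spots or more. A further 25 probes passed the filter but lacked a value on an array and were left out. The number of arrays limits the precision, and nothing says that they came from separate cultures, so p-values measure the spread between arrays only. Without the block, arrays of an shRNA differ in time and arrays of a time differ in shRNA, and that difference is part of the spread. With the block, the spread is how far the shRNA difference changed with time, with variances pooled in part over all tested probes by limma.

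The spot tables used here hold no gene names. RefSeq (GRCh38.p14) named 24910 of 34127 probes through their accessions, current and older symbols were matched to the name patterns, and 9217 probes stayed unnamed. Probe sequences were not used here. Tests were fitted by lmFit and eBayes of limma 3.58.1 in R 4.3.3 over all 23244 tested probes, without a covariate, and the code was tested on simulated data. Time and shRNA are shared by pairs of arrays: over all tested probes the deviations of arrays of the same time correlated at 0.660 and those of the same shRNA at 0.622, so the fit with the other factor as a block is given where it changed a call. Median differences of gene lists carry no test.

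Named were each variant but 1, which is not reported here, the 5 largest rises and falls of replication-dependent probes in each comparison, each called probe, genes whose probes differed by over 1 (0 did), ALKBH3, SLBP, NPAT and called genes of the supply and S phase lists, and others are marked as named after their values were seen. NASP and UBN1 of the supply list were not matched. Members and lists were chosen with earlier results of these data known. Alternatives were normexp background correction (offset 50), quantile normalization, centring on the median, the percentile over detected probes alone, the authors' values, no filter, a filter on all 4 arrays, 1 probe per gene, the block, the methods' unpaired Student test and leaving out each array.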

Additional observations from a re-analysis of the deposited data

How the results depend on the processing

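With 4 arrays, a lone array stands for a group when another is left out, and it is assumed to vary like the other group. Leaving out an array also mixes shRNA with time, since the lone array is of 1 time. No histone probe was called after knockdown under any alternative run. Of the values of single named probes, 617 kept direction and call, 38 changed sign, and the others changed call. Of named probes of at least 0.2 in size, leaving out an array moved 9 of 13 values after knockdown and 6 of 14 between the times by over 1.5 times, and the other settings 1 and 3. All tested histone probes were well above background on all 4 arrays, and cross-hybridization between copies was not tested. Causes of the values below were not tested unless stated.

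With the other factor as a replicate block, the probes past the adjusted p between the times went from 0 to 17 replication-dependent higher and 1 lower, 2 variant higher, 8 supply higher and 25 S phase higher, and after knockdown from 0 to 1 supply lower. The paired fit changed no other of these counts. The methods' unpaired Student test called 2 replication-dependent and 2 S phase probes higher between the times, as limma did, and passed 0 probes of these lists by its adjusted p.

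The median log2 differences moved as follows. After knockdown, the replication-dependent median (0.12) was 0.080 with normexp, 0.13 with quantile normalization, 0.090 with median centring, 0.14 with the percentile over probes detected on all arrays, 0.095 with the authors' values and 0.125 without a filter. The variant median (-0.06) was -0.0907 with normexp, -0.0905 with median centring and -0.037 with the percentile over detected probes. The supply median (-0.016) was -0.035, -0.0187, -0.045, 0.0088 and -0.033 with normexp, quantile normalization, median centring, the percentile over detected probes and the authors' values, and -0.013 with 1 probe per gene.

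Between the times, the replication-dependent median (0.10) was 0.146 with normexp, 0.16 with median centring, 0.11 with the percentile over detected probes and 0.147 with the authors' values. The variant median (0.11) was 0.092, 0.16, 0.12 and 0.13 in the same order, and 0.17 with 1 probe per gene. The supply median (0.20) was 0.24 with normexp, 0.26 with median centring and 0.27 with the authors' values. The S phase median (0.67) was 0.62 with normexp, 0.73 with median centring and 0.69 with 1 probe per gene. With normexp 1 replication-dependent probe (in place of 2) and 1 supply probe (in place of 0) were called higher.

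Variant values close to 0 changed sign under scaling. Between the times, 1 H3-3A probe became 0.032 with normexp and 0.064 with the authors' values, 1 H3-3B probe 0.021, 0.017 and 0.020 with normexp, median centring and the authors' values, and MACROH2A1 -0.106 with normexp and -0.109 with the authors' values. After knockdown, 1 H3-3A probe became 0.021 with quantile normalization and 0.016 with the percentile over detected probes.

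Leaving out each array in turn, the medians after knockdown ranged from 0.038 to 0.20 for replication-dependent, from -0.083 to 0.0092 for variant, from -0.13 to 0.14 for supply and from -0.25 to 0.41 for S phase probes. Between the times they ranged from 0.072 to 0.21, from 0.0998 to 0.14, from 0.18 to 0.29 and from 0.61 to 0.74. Called higher between the times were 0 (without ALKBH3 shRNA at 48 h) to 6 (without control shRNA at 48 h) replication-dependent, 0 to 1 supply and 1 (without control shRNA at 48 h) to 4 (without ALKBH3 shRNA at 48 h) S phase probes. H4C13 was called between the times also without the ALKBH3 array at 96 h.

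Sign changes after knockdown came in H4C13 (-0.77 to 0.20), H4C2 (-0.87 to 0.17), H4C3 (-0.66 to 0.38), H4C4 (-0.64 to 0.22), H4C5 (-0.72 to 0.13), H2AC19 (-0.12 to 0.62), H2AX (-0.65 to 0.074), H2AZ1 (-0.12 to 0.45), 1 H2AZ2 probe (-0.49 to 0.0092), H1-10 (-0.071 to 0.13), H1-7 (-0.13 to 0.0044), MACROH2A1 (-0.13 to 0.0049), MACROH2A2 (-0.011 to 0.20), 2 H3-3A probes (-0.16 to 0.025 and -0.12 to 0.11) and 1 H3-3B probe (-0.047 to 0.27). Between the times they came in H2AJ (-0.25 to 0.077), 1 H3-3A probe (-0.058 to 0.13) and 1 H3-3B probe (-0.17 to 0.095).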
